A study of Homo sapiens with 18 samples.

Results

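Chemokine and chemokine receptor genes were taken from the mRNA-seq table by symbol: every row beginning with CCL, CXCL, CCR or CXCR and a digit, plus XCL1, XCL2, XCR1, CX3CL1 and CX3CR1. This gave 65 of 22336 genes, 45 ligands and 20 receptors, the latter including the pseudogene CXCR2P1. The cells were LNCaP, a line from a human prostate cancer, kept in hormone-stripped medium for 72 h before treatment. Gene expression was measured by mRNA-seq in 3 cultures given 100 ng/ml trichostatin A (TSA, an inhibitor of histone deacetylases) for 24 h, 3 given the DMSO vehicle for 24 h and 3 left untreated, and chromatin accessibility by ATAC-seq in 3 TSA and 3 vehicle cultures. WHG-STARR-seq gave the enhancer activity of genomic fragments, which, when cloned into a reporter, transcribe themselves, with 2 output replicates harvested 72 h after electroporation and 1 input library. An enhancer was called open where it overlapped a DNase I site of LNCaP cells and closed where it did not.

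Chemokines are small secreted proteins that guide migrating cells, and their receptors are membrane proteins that signal through Gi-type G proteins. CXCL8 (IL8 in the table) and the other CXC ligands with an ELR motif attract neutrophils through CXCR1 and CXCR2, CXCL9, CXCL10 and CXCL11 attract T cells through CXCR3, and CXCL12 acts through CXCR4 and is also bound by the atypical receptor CXCR7 (ACKR3). Many inflammatory chemokine promoters are known targets of NF-κB and AP-1, and most of these genes are expressed mainly by leukocytes, endothelium and stroma.

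An annotated start site was found for 64 of the 65 members in GENCODE on GRCh37 (hg19), with 132 starts in all, and CCL14-CCL15 was not matched. Within 20 kb of these starts lay 43 of 51909 ATAC sites, 10 of 11980 open enhancers and 72 of 82547 closed enhancers. The following sequences are shown because the accessibility and enhancer results turn on them, each 200 bases from the hg19 genome, read along the strand of the named gene, with matches to the NF-κB consensus or to the AP-1 motif TGANTCA in capitals. The CCL2 sequence (chr17:32579696-32579895, plus strand, intergenic) is the closed enhancer upstream of CCL2 that overlaps an ATAC site. The CCL11 sequence (chr17:32625574-32625773, plus strand, intergenic) is the closed enhancer that overlaps a site of higher accessibility under TSA. The CXCL3 sequence (chr4:74904407-74904606, minus strand) lies just upstream of its canonical start, within the annotated span of CXCL3 but in none of its annotated basic exons, and in the ATAC site with the lowest q of those near members, and the CCL8 sequence (chr17:32646254-32646453, plus strand) lies just upstream of the start of CCL8, where a closed enhancer is centred.
CCL2 enhancer: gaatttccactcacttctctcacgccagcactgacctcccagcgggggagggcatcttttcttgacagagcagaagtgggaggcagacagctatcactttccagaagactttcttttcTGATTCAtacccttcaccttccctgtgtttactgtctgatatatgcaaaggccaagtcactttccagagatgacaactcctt
CCL11 enhancer: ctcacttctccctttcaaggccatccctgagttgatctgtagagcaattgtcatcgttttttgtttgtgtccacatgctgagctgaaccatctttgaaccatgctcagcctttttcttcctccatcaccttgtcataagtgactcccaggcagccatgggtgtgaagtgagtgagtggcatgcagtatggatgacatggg
CXCL3 upstream: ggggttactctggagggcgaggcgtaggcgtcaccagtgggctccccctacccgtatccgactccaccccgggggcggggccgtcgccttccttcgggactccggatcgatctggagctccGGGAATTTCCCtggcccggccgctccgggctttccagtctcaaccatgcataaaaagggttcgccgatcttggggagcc
CCL8 upstream: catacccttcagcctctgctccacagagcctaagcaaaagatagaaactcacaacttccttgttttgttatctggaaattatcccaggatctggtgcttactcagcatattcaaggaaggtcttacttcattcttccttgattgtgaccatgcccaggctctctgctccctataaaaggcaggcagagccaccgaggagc

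Both motifs were searched on both strands. The CCL2 enhancer held 1 AP-1 match and the CXCL3 window 2 overlapping NF-κB matches, 1 on each strand. The CCL11 and CCL8 windows held neither. Over the 200 bases upstream of the canonical start, 16 of 61 members (26.2%) held an NF-κB match, against 9.36% of 19375 genes, and 6 (9.84%) held an AP-1 match, against 3.69%. Of the 9 members described below as higher under TSA, CCL2, CCL20, CCL22 and CXCL10 held an NF-κB match there, while CCL8, CCL26, CXCL12, CXCR2 and CXCR4 held none. CXCR7, which was lower under TSA, held 1, and CXCL16, also lower, held none. The rest of the members with a match were not called: CCL1, CCL5, CCL11, CX3CL1, CXCL1, CXCL2, CXCL3, CXCL5, CXCL6, CXCL11 and CXCR5. Of these, CXCL1, CXCL2, CXCL3, CXCL5 and CXCL6 lie close together on chromosome 4, so their matches may not be independent. In the 200 bases around the summit of closed enhancers, an NF-κB match was found in 5 of the 72 near members (6.94%), against 4.80% of all, and an AP-1 match in 4 (5.56%), against 8.39%. Of the 10 open enhancers 1 held an NF-κB match (10.0%, against 8.32% of all) and 0 an AP-1 match, against 7.24%. A match is a run of letters and no measure of binding.

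Most members were silent or nearly silent. The table gives an average over libraries and a fold change but no value per library. Genes with a single read form 9 classes in it, 3 higher in TSA, 3 higher in vehicle and 3 with no fold change, so that the fit spanned all 9 mRNA-seq libraries, and reads per condition could be inferred for genes with few reads. The mean library size by this inference was 12337373 reads. No read in any library was found for 16 members (2019 genes in all), among them CXCL1, CXCL2, CXCL6, CXCL14, CCL11, CCL24 and the receptors CCR3 and CXCR3. A further 33 members had 1 to 20 reads over the 9 libraries, and 9 averaged at least 1 CPM (read counts scaled to a common library size), which corresponds to about 93.0 reads.

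Under TSA a small set of members with few reads rose, while CXCR7 and CXCL16, which averaged over 1 CPM, fell. At an adjusted p under 0.05 over all genes, 9 of 65 members were higher under TSA and 6 were lower, against 26.0% and 21.1% of all genes. Of the 56 members under 1 CPM, 8 were higher and 0 lower, where 21.8% and 1.49% of all genes under 1 CPM were called. Of the 9 members at 1 CPM or more, 1 was higher and 6 lower, where 28.1% and 31.1% of such genes were called. This average includes the TSA libraries, so a gene can reach 1 CPM through its TSA reads. CXCR4, the member at 1 CPM or more that was higher, had 3 to 9 reads in vehicle. Of these 6 lower members 4 are CCL3L1, CCL3L3, CCL4L1 and CCL4L2, whose values are nearly the same and uncertain, and without them 2 of 5 were lower. The median log2 fold change of the members was 0.36, against 0.00 over all genes. It was 0.00 after 2 changes: the 3 members called against 0 vehicle reads were set to the floor ratios given below. The 39 members with at most 3 reads in each condition were set to no change.

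**Figure D1:**
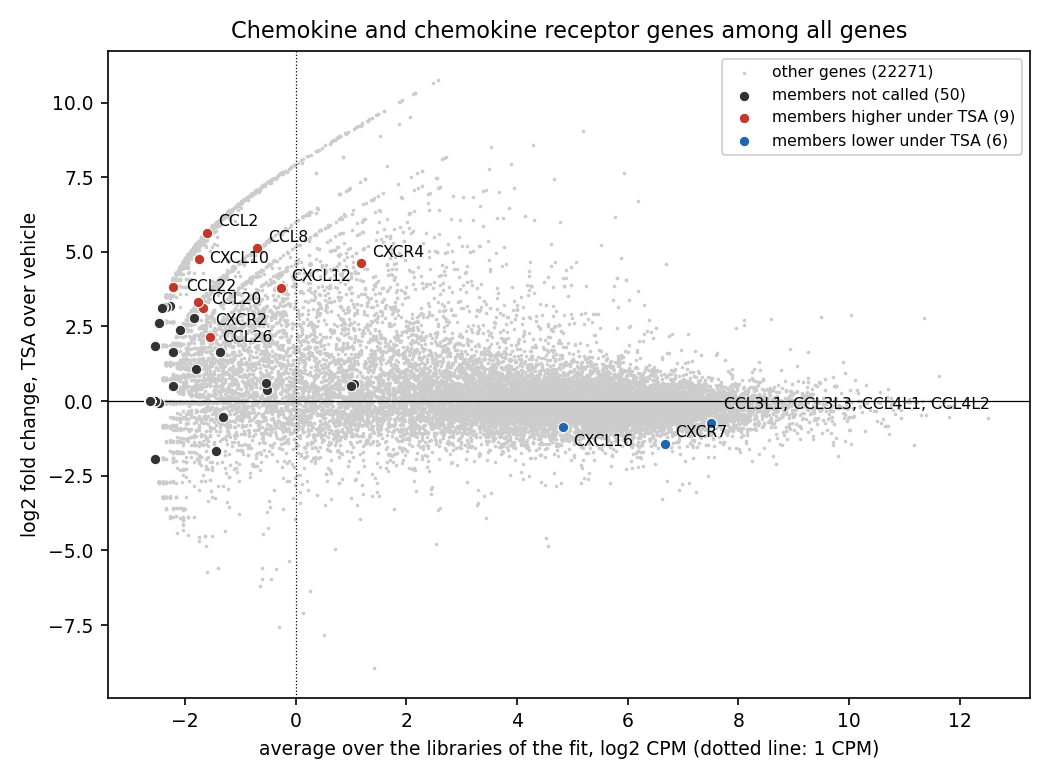
Each point is a gene, with the average over the libraries in log2 CPM on the x axis and the log2 fold change of TSA over vehicle on the y axis. The 8 called members left of the dotted line at 1 CPM all lie above 0, while CXCR4 is the called member right of it that lies above 0 and the other 6 lie below.

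Among the ligands, CXCL12, the homeostatic ligand of CXCR4, had about 74.0 reads in the 9 libraries, of which 47 to 64 were inferred for TSA, 3 to 4 for vehicle and 6 to 24 for untreated cells. Its log2 fold change was 3.80 ± 0.58 (standard error implied by the likelihood ratio, n = 3 per condition, adjusted p = 5.80e-10). CCL8, a monocyte attractant, had 48 to 50 reads in the TSA libraries and 1 in the vehicle libraries, with 0 to 2 in the untreated ones. The ratio of TSA to vehicle was 46.2 to 48.1, with an exact 95% interval from 7.90 to 1937 (adjusted p = 7.65e-08). This interval covers counting error only, as do the other read intervals given here. In bulk cultures, more cells expressing a gene and more RNA per cell cannot be told apart. Of the reads in treated and vehicle cultures, nearly all of both ligands came from the treated cultures.

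CCL2, the main attractant of monocytes, had 18 to 19 reads under TSA, 0 in vehicle and 0 to 1 in untreated cells. With a floor of 3 reads in place of the 0 vehicle reads, it was 5.77-fold higher under TSA (adjusted p = 0.000254). Such a floor ratio takes the TSA reads as exact and leaves out their counting error, so the true fold could be smaller. The fitted log2 fold change of 5.64 depends on the reads that the fit adds to each library. CXCL10, a ligand of CXCR3, had 10 reads under TSA, 0 in vehicle and 5 in untreated cells, 3.21-fold above the floor (adjusted p = 0.00671). CCL22, a ligand of CCR4, had 5, 0 and 1, 1.60-fold above the floor (adjusted p = 0.0275). The untreated cultures held more reads than the vehicle cultures for CXCL10, as they did for CXCL12.

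The remaining called members under 1 CPM were chosen for description after their values were seen. CCL20, the ligand of CCR6, had 14 reads under TSA, 1 in vehicle and 0 in untreated cells, a ratio of 13.5 (exact 95% interval 2.05 to 569, adjusted p = 0.00847). CCL26, an eotaxin, had 15, 3 and 2 reads, a ratio of 4.81 (1.36 to 25.9, adjusted p = 0.0179). CXCR2, a receptor for CXCL8, had 12, 1 and 4 reads, a ratio of 11.5 (1.71 to 493, adjusted p = 0.0292), and here too untreated cells held more than vehicle.

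CXCR4 was the called receptor with the largest rise. It had about 235 reads over the 9 libraries, an average of 1.19 on the log2 CPM scale, with 84 to 233 reads inferred for TSA and 3 to 9 for vehicle, while the untreated reads were not resolved. Its log2 fold change was 4.62 ± 0.48 (n = 3 per condition, adjusted p = 1.56e-20), the lowest adjusted p of the members that rose. CXCR7, a scavenging receptor for CXCL12, moved the other way: its log2 fold change was −1.42 ± 0.09 at an average of 6.67 on the log2 CPM scale (adjusted p = 4.31e-52). CXCL16, a membrane-anchored ligand of CXCR6, had a log2 fold change of −0.88 ± 0.12 at an average of 4.84 (adjusted p = 6.40e-12). CXCL16 overlaps MED11 and ZMYND15 on the opposite strand, whose log2 fold changes were −0.70 and −1.48, and the library kit was stranded but it is not stated whether the counting used strand.

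CCL3L1, CCL3L3, CCL4L1 and CCL4L2, copies of the macrophage inflammatory proteins CCL3 and CCL4, are uncertain. All 4 were listed lower, with log2 fold changes of −0.74 ± 0.11 to 0.12 and averages of 7.51 on the log2 CPM scale, and the values were almost the same within each pair. CCL3 and CCL4 themselves had 1 and 2 reads, all under TSA. The 6 rows of TBC1D3, a multicopy gene family interleaved with these copies on chromosome 17, had log2 fold changes of −0.78 to −0.66 and averages of 7.92 to 10.6. Whether reads were shared between these genes was not tested. Without the 4 genes, 2 members were lower, CXCR7 and CXCL16.

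CXCR6 and CXCR5 averaged 1.06 and 1.00 on the log2 CPM scale and were not called, with log2 fold changes of 0.59 ± 0.37 (adjusted p = 0.187) and 0.50 ± 0.39 (adjusted p = 0.304). CXCR6 overlaps FYCO1 and CXCR5 overlaps BCL9L, both on the opposite strand, which averaged 6.60 and 6.70. CCL5, a T cell attractant, had a log2 fold change of −0.54 ± 0.80, and CCR7, which guides cells to lymph nodes, 1.64 ± 0.81 (adjusted p = 0.0833).

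Of the 33 members with 1 to 20 reads, 30 gave 1 solution for reads per condition. They held 99 reads under TSA, 14 in vehicle and 21 in untreated cells (73.9%, 10.4% and 15.7%). Over all 2870 genes resolved in the same way the shares were 71.6%, 14.4% and 13.99%, so the members were close to low-read genes in general, and the TSA libraries were 1.04 times the size of the vehicle libraries. More reads under TSA than in vehicle were found in 22 of the 30 members, fewer in 4 and equal numbers in 4. These 22 (73.3%) compare with 80.1% of all such genes, and 15 of them rest on 1 to 3 TSA reads. In 16 members all treated or vehicle reads came from TSA, most of them too few to be called: XCL1, CCR2 and CXCR2P1 had 3 reads each under TSA with 1 to 2 in untreated cells, CXCL13 and CXCR1 3 reads each, and CCL4, CCR1, CCL7 and CCL21 2 each. CX3CL1, CCL19, CCL25 and CXCL17 had 1 read each, in vehicle. With counts this small, single members cannot be ranked.

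**Figure D2:**
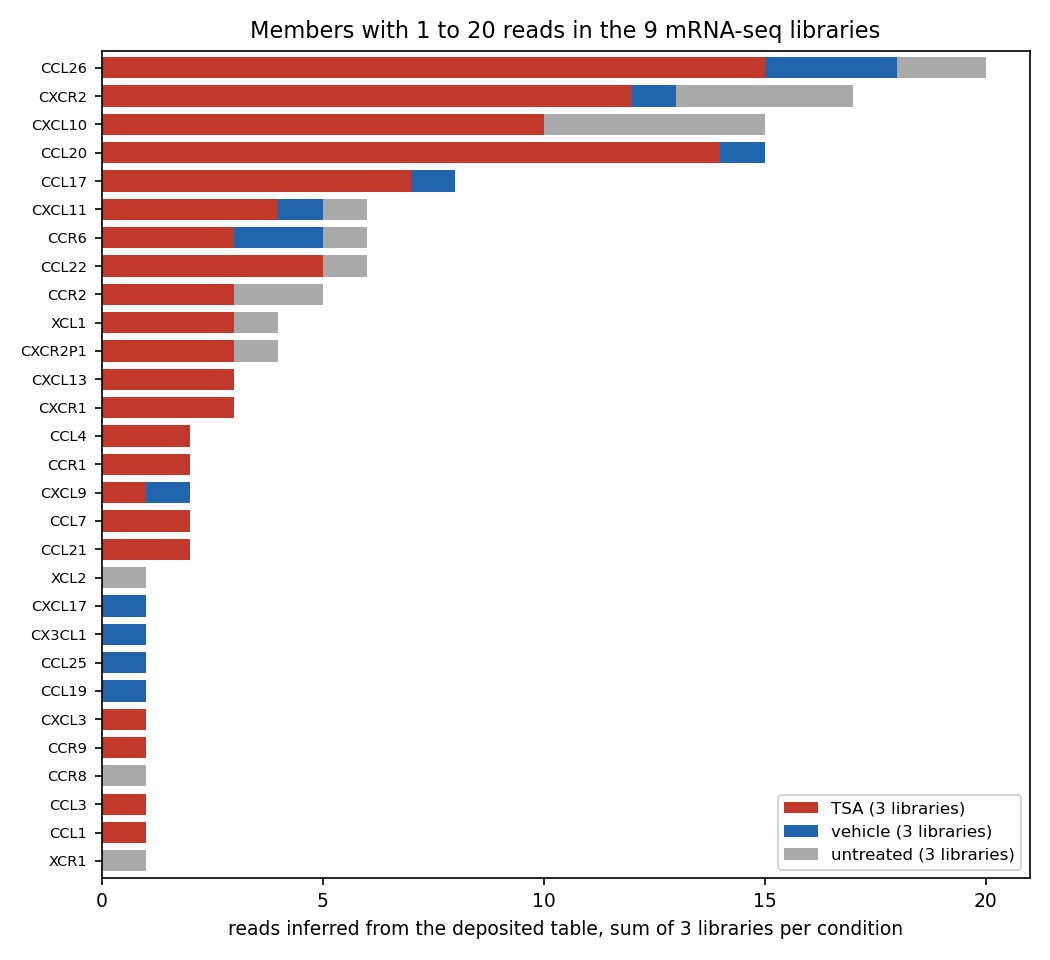
Bars give the reads inferred for 29 members with 1 to 20 reads, summed over 3 libraries per condition. Bars for TSA make up most of the length for CCL26, CCL20, CXCR2 and CXCL10, whereas XCL2, CCR8 and XCR1 had a single read in untreated cells.

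Genes around the family were read from lists chosen with earlier results known, whose counts stand against 26.0% higher and 21.1% lower over all genes. Of 5 chemokine genes under other symbols, 2 were higher and 0 lower, IL8 and PF4. IL8 had 38 to 39 reads under TSA and 1 in vehicle (ratio 36.5 to 37.5, exact 95% interval 6.17 to 1519, adjusted p = 1.83e-06). PF4, a platelet chemokine, had 11 under TSA and 0 in the other conditions, 3.53-fold above the floor of 3 vehicle reads. Of 6 atypical and decoy receptors, CCRL1 was higher (log2 fold change 1.69 ± 0.57, adjusted p = 0.00788) and CXCR7 lower. Of 22 NF-κB pathway genes 6 were higher and 9 lower, all 22 at 1 CPM or more, where 28.1% and 31.1% of genes were called. The log2 fold changes of the 4 with the highest averages were 0.45 ± 0.11 for NFKB1 and 0.43 ± 0.13 for BIRC2, both higher, −0.25 ± 0.11 for the subunit RELA, which was lower, and −0.10 ± 0.12 for TNIP1, which was not called. Of 19 upstream cytokines and receptors 7 were higher and 2 lower, and TNF, IL6 and IFNG had no read. Of 9 interferon pathway factors 1 was higher and 4 lower. Of 20 receptor signalling genes 9 were higher and 3 lower. By average the leading 4 were the G protein subunit GNB1 at −0.33 ± 0.07 and the receptor kinase ADRBK1 at −0.83 ± 0.12 in log2 fold change, both lower, GNAI2, a Gi subunit, at 1.70 ± 0.10, which was higher, and RAC1 at −0.01 ± 0.09, which was not called. Of 12 cleavage and presentation genes 6 were higher and 1 lower, with the sheddase ADAM10 at 0.43 ± 0.10 and NDST1, an enzyme of heparan sulfate synthesis, at −1.02 ± 0.10 in log2 fold change.

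The label of the cells was checked against markers. All 10 luminal prostate markers averaged at least 1 CPM, and 8 of them, including KLK3 at −1.69, were lower under TSA. Of 11 leukocyte markers, 9 averaged under 1 CPM and CD3E had no read, while 3 were higher and 2 lower under TSA. The other 6 were not called. The 3 that were higher had reads in the range of the chemokine genes that rose: PTPRC 10 under TSA and 1 in vehicle, CSF1R 15 and 2, and ITGAM 13 and 0. CD68 went the other way, with a log2 fold change of −0.82 at an average of 3.17 on the log2 CPM scale. Of 7 fibroblast and endothelial markers 4 were higher, 1 lower and 2 not called. COL1A2 had 121 to 129 reads under TSA and 0 in vehicle, while VWF was lower, with a log2 fold change of −1.34. The part of these genes in the chemokine result was not tested.

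Accessibility near the members changed at few sites. Of the 43 ATAC sites within 20 kb, which lay near 31 of the 64 members (48.4%, against 79.8% of 20786 genes), 3 were higher under TSA and 3 lower at q under 0.05, against 12.8% and 15.8% of all sites. The site over the CXCL3 start, centred 229 bp upstream, had a log2 fold change of 1.29 ± 0.24 (q = 2.56e-06) and a peak in the pooled TSA libraries only. The site 12.6 kb downstream of the CCL11 start had a log2 fold change of 2.15 ± 0.80 (q = 0.0290) at a low average of 0.44 on the log2 CPM scale. The third, 19.5 kb downstream of the CXCL14 start and in an intron of SLC25A48, had 1.57 ± 0.33 (q = 4.56e-05). Of the sites lower under TSA, 1 lay 955 bp downstream of an alternative start of CCR2, farther from the canonical one (−0.92 ± 0.27, q = 0.00382). The others lay 3.16 kb downstream of the CXCL6 start (−1.20 ± 0.33, q = 0.00276) and 5.27 kb downstream of the CXCL14 start (−0.76 ± 0.25, q = 0.0104).

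The genes beside the changed sites had few or no reads. CXCL3 had 1 read, under TSA, CCR2 had 3 reads under TSA, 0 in vehicle and 2 in untreated cells, and CCL11, CXCL6 and CXCL14 had none. Conversely, 6 of the 15 called members had an ATAC site within 20 kb and 0 had a called one. The 15 include the copies CCL3L1, CCL3L3, CCL4L1 and CCL4L2, which had no site within 20 kb. The called site near CCL11 also lies upstream of CCL8, which rose, just outside the 20 kb limit. At CXCR4 the site covering the start had a log2 fold change of −0.13 ± 0.15 (q = 0.523), at CXCR7 0.06 ± 0.33 (q = 0.916), and 1.94 kb upstream of the CXCL12 start −0.26 ± 0.22 (q = 0.384). The 2 sites upstream of CCL2, centred 2.65 kb and 264 bp from the start, had 0.55 ± 0.28 (q = 0.122) and 0.47 ± 0.27 (q = 0.179), and both had a peak in the TSA libraries only. At CXCL16 the site over the start had 0.16 ± 0.21 (q = 0.592), and the site near CX3CL1 and CCL22 had 0.46 ± 0.24 (q = 0.144). Other members with a site were CXCR5, CCL7, CCL1, CCL13, CCL16, CCL14, CCR10, CXCR2P1, CX3CR1, CXCL1, CXCL2, CXCL9, CXCL13, CCL28, CCL27, CCL21, CCL19 and CXCR3, none of these with a called site.

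**Figure D3:**
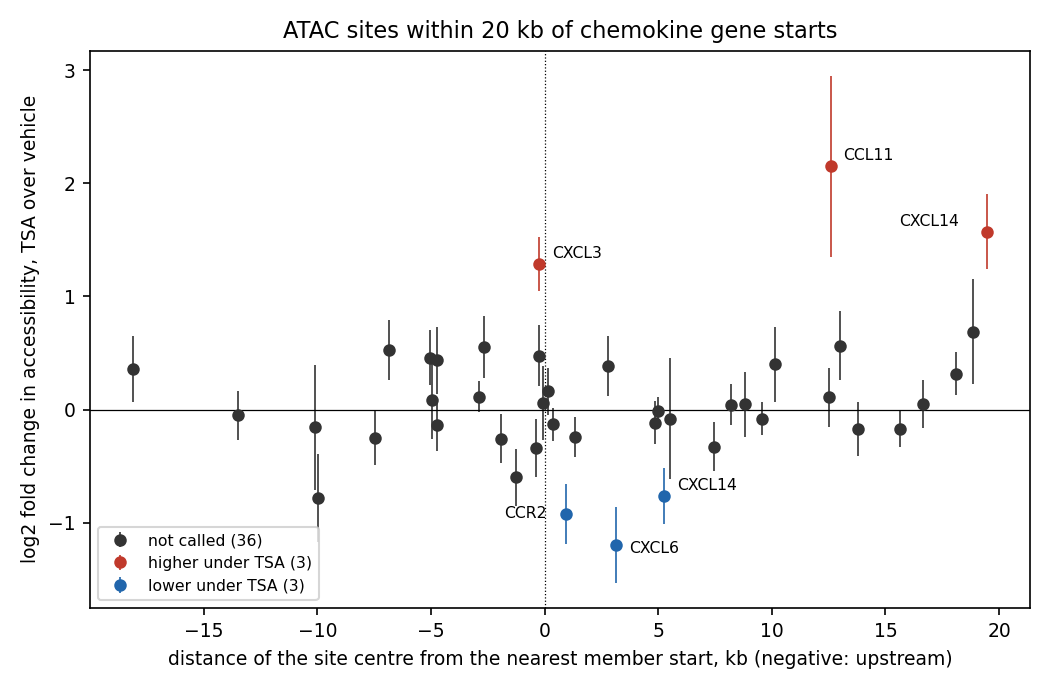
Points are 42 of the 43 ATAC sites, with the distance from the nearest member start in kb on the x axis and the log2 fold change in accessibility on the y axis, and bars are the standard errors implied by the likelihood ratio. The sites of CXCL3, CCL11 and CXCL14 stand above 0 and those of CCR2, CXCL6 and CXCL14 below, while the 2 sites upstream of CCL2 lie at 0.55 and 0.47 and were not called.

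Enhancers near the members were mainly of the closed kind. A closed enhancer lay within 20 kb of 48 members (75.0%, against 67.5% of all genes) and an open one within 20 kb of 8 (12.5%, against 42.6%). Of the 82 enhancers near members 87.8% were closed, close to the 87.3% over the genome. The 72 closed enhancers had fold enrichments of output over input of at least 1.97 with a median of 2.83, against a median of 3.10 for all closed enhancers, and the 10 open ones from 2.28 to 12.9 with a median of 3.01, against 2.78. Output replicates had been pooled, so no error between replicates can be given.

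Among the strongest closed enhancers was that 18.3 kb upstream of an alternative start of CCL24 at 5.43-fold. The canonical start of CCL24 lies beyond the 20 kb limit from it. Others lay 11.6 kb downstream of CXCL3 at 4.76-fold and 2.61 kb upstream of CCL2 at 4.64-fold, the last with 77 output against 15.8 input fragments. Next came enhancers on the CXCL1 side at 4.58-fold, 19.7 kb upstream of CCL2 at 4.50-fold, 822 bp downstream of the CCL18 start at 4.46-fold and in an intron of CX3CR1 at 4.45-fold. None of CCL24, CXCL1 and CCL18 had a read in any mRNA-seq library, and CXCL3 had 1.

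Of the 72 closed enhancers 11 were centred within 1 kb of any annotated start of a member. That of CCL8, 15.5 bp upstream of the start, had a fold of 2.47, and that of CCL20, 61 bp upstream, 3.03. That of CXCR4, 302 bp downstream of an alternative start and upstream of the canonical one, had 3.11. Others were at CCR7, CCR1, CCL27, CCL17, CCL18, CCR3, CCL1 and CX3CR1. For CCR7, CCL17, CCR3 and CX3CR1 the nearest start was also an alternative one, and not the canonical start. An enhancer of the closed kind lay within 20 kb of 8 of the 9 members that rose, all but CCL26, and of 2 of the 6 that were lower, where 75.0% of members and 67.5% of all genes had one. Those 2 were CXCR7 and CXCL16, and the other 4 were the copies CCL3L1, CCL3L3, CCL4L1 and CCL4L2. The authors kept only reads that mapped to 1 place, so an enhancer or ATAC site in such copies could go undetected. Whether these shares differ was not tested. CCL8 had 4, with folds of 2.08 to 3.32, and CCL2 had 3, with folds of 3.30 to 4.64.

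The strongest open enhancers near members lay closer to the starts of other genes. That 9.61 kb from the CCR10 start, at 12.9-fold and 294 output fragments, was in an exon of PLEKHH3, and that 11.5 kb from the CXCL9 start, at 11.7-fold, was in an intron of SDAD1-AS1. The next were a second one near CXCL9 at 3.72-fold, 1 within CXCR7 at 3.36-fold and 1 upstream of CCL25 at 3.18-fold. The nearest start was that of a member for 4 open enhancers out of 10 and for 68 closed ones out of 72.

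ATAC sites and closed enhancers met at 3 places, near CCL2, CXCR4 and CCL11. The site upstream of CCL2 and that at CXCR4 were not called, and that of CCL11 was higher under TSA. The CXCR4 site had a peak in the vehicle libraries as well as in the TSA libraries. Its enhancer is thus closed by the DNase I sites but meets an ATAC peak without TSA. The CCL2 and CCL11 sites had a peak in the TSA libraries only. At CCL11 the enhancer had a fold of 2.21, with 45 output fragments against 19.8 scaled input fragments. CCL11 had no read in any mRNA-seq library. This site and enhancer also lie upstream of CCL8, just outside the 20 kb limit.

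**Figure D4:**
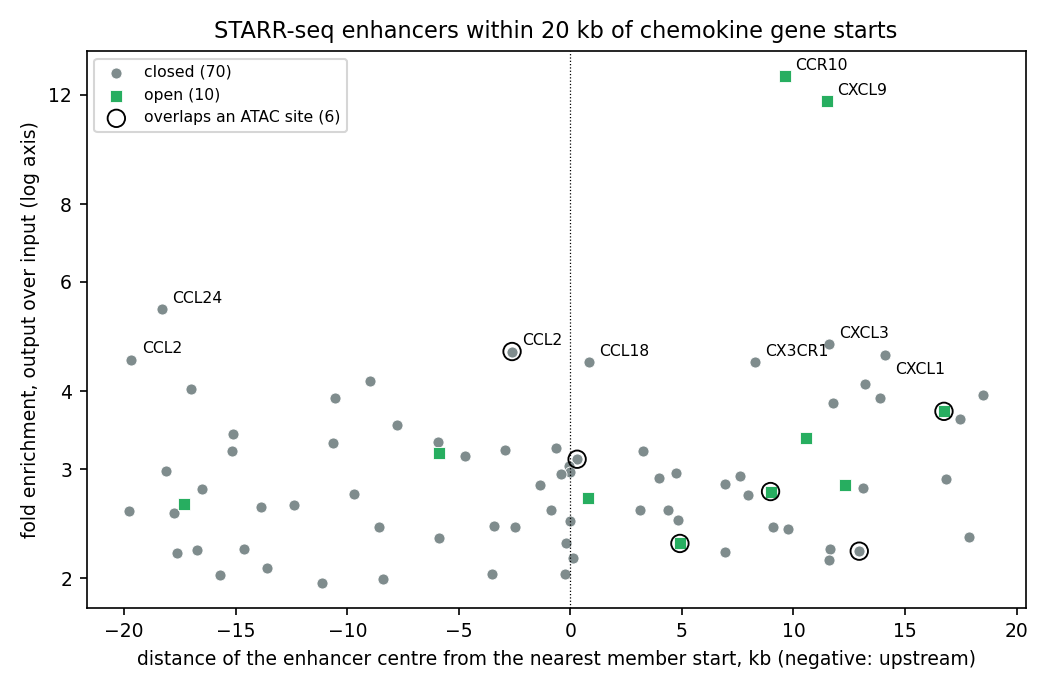
Points are 80 of the 82 enhancers within 20 kb of a member start, with the distance in kb on the x axis and the fold enrichment of output over input on a log y axis. The 2 open enhancers on the sides of CCR10 and CXCL9 reach 12.9 and 11.7, and of the closed ones drawn that near CCL24 stands highest at 5.43, while circles mark the 6 enhancers that overlap an ATAC site.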

How the data were processed

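Members were chosen by symbol, and members and gene lists were chosen with earlier results of these data known. For mRNA-seq, the authors mapped reads to hg19 with TopHat, counted them over RefSeq genes and tested TSA against vehicle in edgeR, and for ATAC-seq they used Bowtie, cutadapt, Bowtie2, Picard and Fseq before the same comparison. For these tools the version is not given in the sources used here. Both deposited tables hold the authors' own comparison: the p-value (for ATAC sites also the q-value), the likelihood ratio as a score, and the average (CPM) and fold change, both as log2. No file has a value per library, so these columns are used here as the only measure of expression and accessibility. Fseq peaks came from pooled libraries of each condition, with a deposited score. For enhancers the authors ran MACS2 on the pooled replicates with the input as control, and the deposited lists hold a fold enrichment as a ratio and a −log10 p-value and q-value.

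Gene p-values were adjusted over all 22336 genes (Benjamini-Hochberg, called under 0.05), and ATAC sites were called at the deposited q under 0.05. Standard errors are the absolute log2 fold change over the square root of the likelihood ratio. Reads per condition were inferred from the average and fold change, which came out whole to within 0.1 for 96.7% of 3426 genes with 1 to 20 reads. They were given exactly up to 20 reads where 1 solution lay within 0.05 of the log2 fold change, and as ranges above. Each fitted average includes 2 added reads per library. Output and scaled input fragments were recovered from fold and p-value. Sites and enhancers were taken where their centre lay within 20 kb of a start in the basic GENCODE set. Distances are to the nearest such start, canonical or not. The scripts were tested on simulated data and used scipy 1.17.1, pysam 0.24.0, pandas 2.3.3 and matplotlib 3.10.9 in Python 3.11.15.

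Most genes were named by rule: called members at 1 CPM or more, the 8 with the highest averages, the 5 largest rises and falls among called members under 1 CPM, members with an ATAC site within 20 kb, and members beside the 5 strongest open and 8 strongest closed enhancers. Outside this rule, CCL20, CCL26 and CXCR2 were chosen after their values were seen, and CCL5, CCR7 and others were also named. Results for 1 member and 1 marker are not reported here. Alternatives were a stricter threshold, a CPM filter, other distances and other member sets.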

Additional observations from a re-analysis of the deposited data

How the results depend on the processing

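The count of 9 members higher under TSA became 1 when genes under 1 CPM were left out and 3 by the Bonferroni method. The CPM filter is no independent check, because its average includes the TSA libraries. The 1 left, CXCR4, had 84 to 233 reads in TSA and 3 to 9 in vehicle. The 6 lower members became 2 without the 4 genes that share their values, a choice added after seeing the data. The median log2 fold change of 0.36 became −0.74 over members at 1 CPM or more and 0.18 with chemokine genes of other names. Added after seeing the data, it was 0.50 without the 4 genes that share values and 1.86 over members with a read. Within 50 kb there were 90 ATAC sites, 12 of them higher and 9 lower, with 19 open and 136 closed enhancers. Within 10 kb 1 site was higher, with 5 open and 38 closed enhancers. At a fold of at least 3 there were 5 open and 28 closed enhancers, and 4 open enhancers had a member as the nearest start, also added after seeing the data. The cause of these shifts was not tested beyond what each choice removes or adds. Recentring on the median of all genes (0.00) or of genes at 1 CPM or more (−0.05) reversed the direction of 0 of 16 named genes. Both shifts were smaller than the log2 fold change of every one of these genes, so no reversal was possible. Leaving out replicates was not run, because no file has a value per library. No paired analysis was possible because the deposited tables carry no value per library. With a mean library size of 12337373 reads, members at 1 to 3 reads allow no statement on a change.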
